A study of Mus musculus with 16 samples.

Results

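Genes of the heat shock response and of the unfolded protein response were followed in NM1 knock-out (KO) and wild-type (WT) mice, in lungs, in heart and in skin fibroblasts. The 10 genes listed by name are Hspa5, Hsp90b1, Hspa1a, Hspa1b, Dnajb1, Xbp1, Herpud1, Ddit3, Atf4 and Trib3, and every probe set annotated to 1 of them alone was taken. Of the 10, 9 had a probe set, with 19 probe sets among the 45037 of the array. Hspa1a had none under its own name and is not measured here. NM1 (nuclear myosin 1) is a motor protein linked to transcription and one of the isoforms of the gene Myo1c. The series asked how loss of NM1 changes transcript levels in organs with high NM1 expression and in skin fibroblast cells. There were 16 arrays in 6 groups. Lungs and heart each came from the KO mice 1602, 1603 and 1586 and from the WT mice 1592, 1624 and 1593. The fibroblast samples carried the numbers 1584 and 1550 (KO) and 1571 and 1623 (WT), so they stem from other animals than the organs. Each number was read as 1 animal, no group received a treatment by the labels, and the sources used here do not give the strain, age or sex of the mice or the part of Myo1c removed.

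Cells answer misfolded protein in the cytosol and in the endoplasmic reticulum (ER) with different sets of genes. In the cytosol, heat shock factor 1 (HSF1) switches on chaperones such as HSP70, made from Hspa1a and Hspa1b, and its partner HSP40, made from Dnajb1, and transcripts of these genes rise quickly after heat, handling or other stress. In the ER, the sensors IRE1, PERK and ATF6 act through the transcription factors XBP1, ATF4 and the cleaved form of ATF6, which raise ER chaperones such as BiP (Hspa5) and GRP94 (Hsp90b1), the degradation factor HERP (Herpud1) and, further downstream, CHOP (Ddit3) and the pseudokinase TRIB3. Secretory cells carry high levels of the ER branch without injury, because they fold much protein for export.

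Promoter sequences of the listed genes were searched for the DNA elements of these branches, since the genes are grouped by them. All 10 genes had a window in the RefSeq promoter table of assembly GRCm38.p6, which runs from 250 bases before to 50 bases after the start site and holds 32851 windows. The stretches below hold the matches found on either strand, printed 5′ to 3′ on the gene's strand with the matched letters in capitals. For Hspa1b the stretch is chr17:34959239-34959358 and for Hspa1a chr17:34972157-34972276, both on the minus strand. It is chr2:34771970-34772089 on the plus strand for Hspa5, chr10:86705525-86705664 on the minus strand for Hsp90b1 and chr8:94386309-94386428 on the plus strand for Herpud1.
Hspa1b: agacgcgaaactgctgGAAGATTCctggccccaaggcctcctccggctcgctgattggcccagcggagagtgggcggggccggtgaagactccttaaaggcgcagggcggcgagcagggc
Hspa1a: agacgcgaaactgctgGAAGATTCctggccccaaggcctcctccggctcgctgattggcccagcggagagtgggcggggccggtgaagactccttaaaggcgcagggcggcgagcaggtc
Hspa5: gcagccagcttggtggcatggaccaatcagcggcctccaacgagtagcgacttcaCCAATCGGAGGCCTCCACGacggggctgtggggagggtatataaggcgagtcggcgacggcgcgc
Hsp90b1: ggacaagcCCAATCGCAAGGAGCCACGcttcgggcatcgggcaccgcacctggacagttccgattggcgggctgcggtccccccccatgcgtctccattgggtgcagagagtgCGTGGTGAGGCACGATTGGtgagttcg
Herpud1: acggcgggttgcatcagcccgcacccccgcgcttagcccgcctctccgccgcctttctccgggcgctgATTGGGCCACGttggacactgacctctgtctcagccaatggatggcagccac
The capitals in Hspa1b and Hspa1a mark the inverted pair of a heat shock element, GAANNTTC, the letters read by HSF1, at -104 to -97 from the start site. This short pattern was present in 7.86% of all windows and in no other listed gene, and the longer form, GAANNTTC followed after any 2 bases by another GAA, was in 0.603% of windows and in none of the listed genes. In Hspa5 the capitals mark the ER stress response element, CCAAT and CCACG with any 9 bases between them, to which NF-Y and ATF6 bind, at -65 to -47. Hsp90b1 had 2 such matches, at -212 to -194 and, read on the opposite strand, at -107 to -89. Only 0.119% of all windows held this element. In Herpud1 they mark the related element, ATTGG and CCACG with any 1 base between them, at -52 to -42, found in 0.0365% of windows, which shares its letters CCACG with the longer element but did not overlap a match of it here. TGACGTGG, a site of XBP1 and ATF6 found in 0.676% of windows, and TGATGNAAT, the amino acid response element of ATF4 found in 0.965%, matched none of the listed genes in these windows. Over the 250 bases before the start, Hspa1a and Hspa1b differed at 3 positions and were 98.8% identical, 1 of the differences lying in the 120 bases printed. The copies are near-identical genes, and whether the probe sets named for Hspa1b also read Hspa1a transcript was not tested.

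Values are log2 signals as deposited, and a difference of 1 is a doubling. The labelled sources carried their markers. The surfactant gene Sftpc had 13.9 to 14.1 in lungs and at most 6.22 in heart and 3.39 in fibroblasts. The heart myosin gene Myl2 had 13.83 to 13.98 in heart and at most 4.14 in lungs and 3.82 in fibroblasts. Other heart markers were present in lungs, where Actc1 reached 11.6, Tnnt2 10.7, Tnni3 10.2 and Myl3 6.46. The mean of 5 heart markers ran from 5.04 to 8.62 in KO and from 7.06 to 8.35 in WT lungs. Atrial marker means were 6.54 to 10.1 in KO and 7.54 to 9.84 in WT lungs. The part of such heart transcripts in the lungs levels below was not tested. Fibroblasts had 10.9 to 11.6 of the collagen gene Col1a1, which reached 6.51 in lungs and 6.49 in heart. The mean level of the 4 Myo1c probe sets did not overlap between the genotypes in any tissue, with KO minus WT differences of -1.35 in lungs, -0.75 in heart and -1.41 in fibroblasts, which checks the labels for a gene whose probe sets do not tell NM1 from other isoforms. Some organ samples stood apart. Lungs of KO 1603, KO 1586 and WT 1592 held adipocyte transcripts, with marker means of 8.72, 9.18 and 7.24 over 6 genes against 3.89 to 4.26 in the other lungs. Hearts of KO 1602 and KO 1586 had low atrial marker means of 5.79 and 6.54 against 9.92 to 11.8 in the other hearts except KO 1603, at 10.7. The heart of KO 1602 also had an upper quartile of 5.63 over all probe sets against 6.17 to 6.31 in the other hearts.

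Hspa1b, the stress-inducible HSP70 gene, varied more from animal to animal than any other measured gene of the list. Of its 3 probe sets, 1452318_PM_a_at had the highest mean and is given here as the main one. In lungs its log2 level was 9.31, 7.49 and 10.74 in WT 1592, 1624 and 1593 and 8.47, 10.69 and 8.02 in KO 1602, 1603 and 1586. In heart it was 5.95, 5.10 and 8.95 in the same WT mice and 6.00, 5.96 and 3.61 in the same KO mice. Fibroblasts had 9.54 and 10.57 in WT 1571 and 1623 and 9.94 and 9.55 in KO 1584 and 1550. Lungs of 1 WT and 1 KO mouse were the highest of that organ, WT 1593 was the highest heart by a wide margin, KO 1586 was the lowest heart, and the genotypes overlapped in every tissue. Over all 6 lungs the lowest and highest level lay 9.46-fold apart. The heart of KO 1586 lay below 3.79, the median of all values on the arrays, which serves below as the filter for low signal, so the highest heart is given as at least 35.8-fold above it, and it was 14.4-fold above the next lowest heart.

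Dnajb1, the HSP40 cochaperone that hands substrates to HSP70, was high and low in nearly the same animals. Log2 levels of its main probe set, 1416755_PM_at, were 9.61, 8.80 and 10.09 in WT and 9.42, 10.09 and 8.44 in KO lungs, with animals in the order used for Hspa1b. Hearts had 8.38, 7.87 and 9.24 in WT and 8.28, 8.10 and 7.44 in KO, and fibroblasts 8.90 and 9.05 in WT and 8.93 and 8.70 in KO. As with Hspa1b, WT 1593 was high in both organs, KO 1603 was high in lungs, KO 1586 was low in heart, and the genotypes overlapped.

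**Figure D1:**
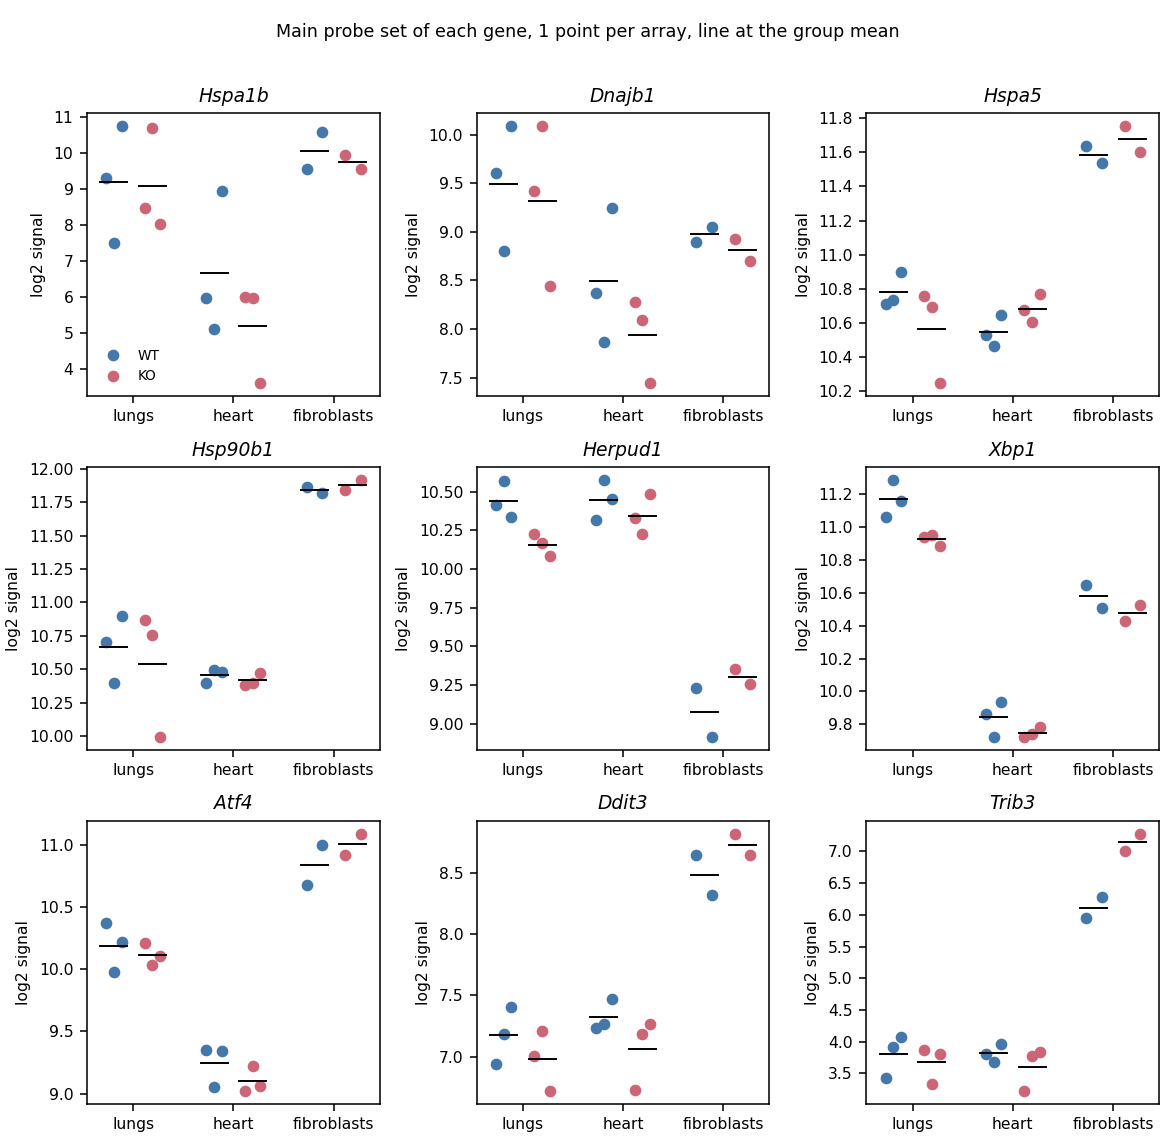
Log2 signal (y axis, a separate scale per gene) of the main probe set of each of the 9 measured genes in lungs, heart and fibroblasts (x axis), 1 point per array, WT in blue and KO in red, with a line at each group mean. Hspa1b and Dnajb1 spread widely within groups, while Xbp1, Atf4 and Herpud1 separate tissues and Trib3 is high in fibroblasts alone, where the KO points at 7.01 and 7.27 lie above the WT points at 5.95 and 6.28.

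In the pooled spread among samples of a group, Hspa1b and Dnajb1 stood apart from the ER genes. Pooled over the 6 groups, the within-group SD of the log2 level was 1.48 for Hspa1b, larger than for 99.8% of the 26499 probe sets kept in any tissue, whose median was 0.27. The other Hspa1b probe sets, 1427127_PM_x_at and 1427126_PM_at, had 1.41 and 1.44. For Dnajb1 the SD was 0.60, above 96.7% of probe sets. All other main probe sets had an SD of 0.28 or less, from Trib3 (0.28), Hsp90b1 (0.24) and Ddit3 (0.22) through Atf4 (0.15), Hspa5 (0.15) and Herpud1 (0.13) to Xbp1 (0.08), smaller than all but 1.16% of probe sets. By tissue, Hspa1b had an SD of 1.53 in lungs and 1.73 in heart, and 0.55 in fibroblasts, where it still exceeded 94.4% of probe sets. Dnajb1 had 0.74 in lungs and 0.58 in heart and, at 0.14, lay near the fibroblast median of 0.15. In fibroblasts Herpud1 (0.17), Ddit3 (0.18), Atf4 (0.18) and Trib3 (0.21) spread more than Dnajb1. In lungs Hsp90b1 had 0.38, above 82.8% of probe sets. The other Xbp1 probe sets had pooled SDs of 0.16 to 0.19. These SDs describe the samples and were not tested.

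**Figure D2:**
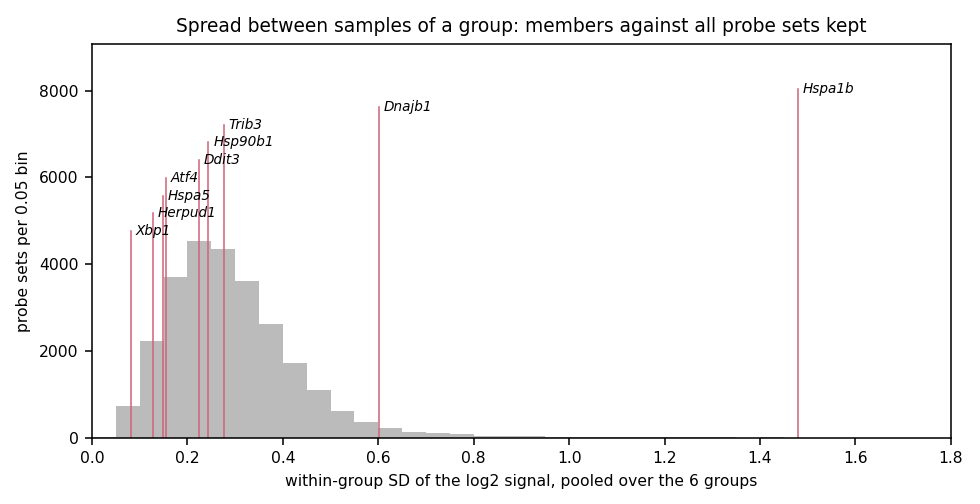
Histogram of the within-group SD of the log2 signal, pooled over the 6 groups (x axis), for the 26499 probe sets kept in any tissue (y axis, number of probe sets per bin of 0.05). Red lines mark the main probe set of each gene and their heights carry no value. Hspa1b at 1.48 and Dnajb1 at 0.60 lie in the right tail, and Xbp1 at 0.08 lies at the left end.

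Whether the chaperone genes moved together over animals was asked within each organ, over 6 mice. In heart, Hspa1b and Dnajb1 were correlated with a Pearson r of 0.987 (exact permutation p = 0.00556, adjusted p = 0.0444 over 8 relations) and a Spearman rho of 0.829 (exact permutation p = 0.0583, adjusted p = 0.156). Without the 2 hearts farthest from the median, WT 1593 and KO 1586, r was 0.852 over 4 hearts. Of these, WT 1592, KO 1602 and KO 1603 had Hspa1b levels of 5.95, 6.00 and 5.96, against 5.10 in WT 1624. That r thus rests largely on WT 1624. In lungs r was 0.920 (exact permutation p = 0.025, adjusted p = 0.0639), rho was 0.886 (exact permutation p = 0.0333, adjusted p = 0.133), and r was 0.796 without the 2 farthest lungs. All p-values here are two-sided, and the smallest that 6 animals allow is 0.00139. As deviations from the genotype means, with animals exchanged only within a genotype, r was 0.985 in heart (exact permutation p = 0.0278, the smallest this allows, adjusted p = 0.167) and 0.925 in lungs (exact permutation p = 0.0556, adjusted p = 0.167). Even that smallest p passes the adjustment over 8 relations only if several relations reach it, so exchange within genotypes cannot decide here. The relation between the 2 genes thus passed the threshold over the mixed genotypes in heart alone, by r and over the 8 planned relations. Adjusted over 9 relations, with the one added next, its exact permutation p became 0.05, which is not under the threshold. The heart of WT 1593 carries much of its range. Over mice, the Hspa1b level in lungs and in heart of the same animal had an r of 0.735 (exact permutation p = 0.0625, adjusted p = 0.113 over 9 relations, chosen after seeing the data) and a rho of 0.771 (exact permutation p = 0.103, adjusted p = 0.185), and r was 0.550 without the 2 farthest mice.

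**Figure D3:**
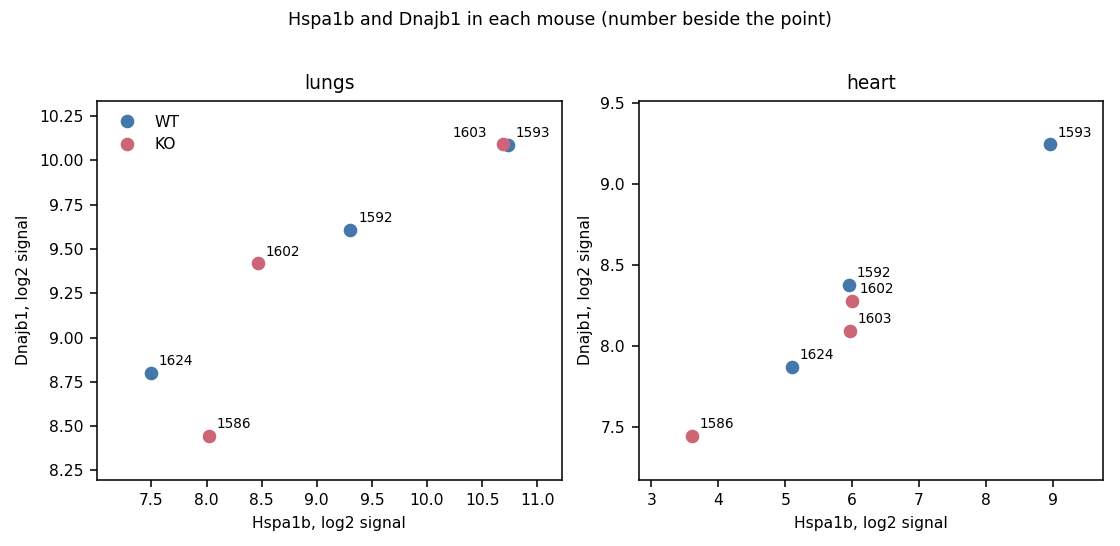
Log2 signal of Dnajb1 (y axis) against Hspa1b (x axis) in lungs (left) and heart (right), 1 point per mouse with its number, WT in blue and KO in red. Both genes are highest in WT 1593 in heart, at 8.95 and 9.24, and lowest in KO 1586, at 3.61 and 7.44, and both genotypes lie along the same line of points.

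Immediate early genes, such as Fos and Jun, which are transcribed within minutes of a stimulus, were set beside Hspa1b as well. In lungs, Hspa1b and the mean of 15 immediate early genes had an r of 0.889 (exact permutation p = 0.0236, adjusted p = 0.0639) and a rho of 0.943 (exact permutation p = 0.0167, adjusted p = 0.133), with 0.806 for r without the 2 farthest lungs. In heart r was 0.802 (exact permutation p = 0.0861, adjusted p = 0.138) and rho 0.371 (exact permutation p = 0.497, adjusted p = 0.644), and r fell to -0.0066 without the 2 farthest hearts. Thus in heart the relation rests on those samples, of which WT 1593 had an immediate early mean of 7.76 against 6.37 to 7.04 in the other hearts. Their part in the Hspa1b level was not tested.

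The relation of Hspa1b to Hspa5 did not pass in either organ. Its r was 0.474 in lungs (exact permutation p = 0.397, adjusted p = 0.530, rho 0.314 with adjusted p = 0.644) and -0.147 in heart (exact permutation p = 0.822, adjusted p = 0.922, rho 0.0857 with adjusted p = 0.919). Without the 2 farthest samples it was 0.220 in lungs and 0.785 in heart, and as deviations from genotype means 0.531 and 0.276, so its sign in heart depends on the setting. Within the ER branch, Hspa5 and Hsp90b1 had an r of 0.889 in lungs (exact permutation p = 0.0319, adjusted p = 0.0639, rho 0.771 with adjusted p = 0.206), which fell to 0.0083 without the 2 farthest lungs, so it rests on those samples. KO 1586 had the lowest lungs level of both. In heart their r was -0.0575 (exact permutation p = 0.922, adjusted p = 0.922, rho -0.314 with adjusted p = 0.644), over levels that spanned only 10.46 to 10.77 for Hspa5 and 10.38 to 10.49 for Hsp90b1.

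Heart had the lowest mean levels of both cytosolic genes. With KO and WT averaged, lungs minus heart was 3.19 log2 for Hspa1b (SE 0.74, 9.13-fold, limma adjusted p = 0.00136) and 1.19 for Dnajb1 (SE 0.30, 2.28-fold, adjusted p = 0.00279). Between the WT groups alone these differences were 2.51 (limma adjusted p = 0.0512) and 1.003 (adjusted p = 0.0581), so neither passed. The spread used there still came from all arrays of both genotypes. All 6 mice had more Hspa1b signal in lungs than in heart. Against fibroblasts, heart was lower in Hspa1b by 3.97 log2 (heart minus fibroblasts -3.97, SE 0.82, 15.7-fold, adjusted p = 0.000572), and the lungs difference of -0.78 did not pass (SE 0.82, adjusted p = 0.403). The order for Hspa1b was thus fibroblasts, lungs and heart, with the first pair not separated beyond their spread. The Dnajb1 probe sets disagreed. The main one had 0.51 for lungs minus fibroblasts (adjusted p = 0.185) and -0.68 for heart minus fibroblasts (adjusted p = 0.0848), whereas 1416756_PM_at had -1.14 (adjusted p = 0.00954) and -1.96 (adjusted p = 0.000160). In such bulk samples, fewer cells of a type and less RNA per cell cannot be told apart. The fibroblast samples are labelled as cells and came from other animals than the organs. For every difference from fibroblasts given here and below, the cell type thus cannot be told apart from isolation or culture of the cells.

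Hspa5, the ER chaperone BiP that also holds the stress sensors inactive, was higher in fibroblasts than in either organ. Its main probe set, 1416064_PM_a_at, had log2 levels of 11.64 and 11.54 in WT and 11.75 and 11.60 in KO fibroblasts. Lungs had 10.71, 10.73 and 10.90 in WT and 10.75, 10.69 and 10.25 in KO, and hearts 10.53, 10.46 and 10.64 in WT and 10.67, 10.60 and 10.77 in KO. Every fibroblast value lay above every organ value, and the organs overlapped. Lungs minus fibroblasts was -0.96 (SE 0.11, 1.95-fold, adjusted p = 1.96e-06) and heart minus fibroblasts -1.02 (SE 0.11, 2.03-fold, adjusted p = 8.37e-07). Between lungs and heart the main probe set differed by 0.06 (adjusted p = 0.580) and the other one, 1427464_PM_s_at, by -0.60 (adjusted p = 0.000847), so the array does not settle their order.

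Hsp90b1, the ER-resident HSP90 called GRP94, followed the same pattern. Fibroblasts had log2 levels of 11.86 and 11.82 in WT and 11.84 and 11.92 in KO (1438040_PM_a_at). Levels were 10.70, 10.39 and 10.90 in WT and 10.86, 10.76 and 9.99 in KO lungs, and 10.40, 10.49 and 10.48 in WT and 10.38, 10.40 and 10.47 in KO hearts. Again every fibroblast sample was above every organ sample, and lungs of KO 1586 were the lowest of all. The difference from fibroblasts was -1.26 in lungs (SE 0.15, 2.39-fold, adjusted p = 4.39e-06) and -1.42 in heart (SE 0.15, 2.68-fold, adjusted p = 1.00e-06). Lungs minus heart was 0.17 for this probe set (adjusted p = 0.275) and 0.51 for 1415889_PM_a_at (adjusted p = 7.72e-05). With the 3 lungs samples rich in adipocyte transcripts left out, chosen after seeing the data, the main probe set had 0.32. That fit keeps KO 1602 as the only KO lungs sample.

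Herpud1, which helps to draw misfolded proteins out of the ER for degradation, had the opposite order and was the only gene with its main probe set lower in fibroblasts than in both organs. Its log2 levels (1448185_PM_at) were 9.23 and 8.91 in WT and 9.36 and 9.25 in KO fibroblasts. In lungs they were 10.42, 10.57 and 10.34 in WT and 10.22, 10.17 and 10.08 in KO, and in hearts 10.32, 10.58 and 10.45 in WT and 10.33, 10.22 and 10.49 in KO. No fibroblast value reached an organ value. Relative to fibroblasts the difference was 1.11 in lungs (SE 0.10, 2.16-fold, adjusted p = 1.80e-07) and 1.21 in heart (SE 0.10, 2.31-fold, adjusted p = 5.33e-08), and lungs and heart were not separated, at -0.10 (adjusted p = 0.319).

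Xbp1, whose mRNA is spliced by IRE1 to give the transcription factor of the ER branch, separated all 3 tissues. The main probe set, 1437223_PM_s_at, had log2 levels of 11.06, 11.28 and 11.16 in WT and 10.94, 10.95 and 10.88 in KO lungs. Fibroblasts had 10.65 and 10.51 in WT and 10.43 and 10.52 in KO, and hearts 9.86, 9.73 and 9.94 in WT and 9.72, 9.74 and 9.78 in KO. The tissues did not overlap, with lungs highest and heart lowest. Lungs minus heart was 1.25 (SE 0.07, 2.38-fold, adjusted p = 1.75e-09), lungs minus fibroblasts 0.52 (SE 0.08, adjusted p = 5.31e-05) and heart minus fibroblasts -0.73 (SE 0.08, adjusted p = 1.59e-06). All 4 Xbp1 probe sets were called for lungs minus heart, from 0.36 to 1.25, while for lungs minus fibroblasts 1420886_PM_a_at and 1420012_PM_at, at 0.06 and 0.04, were not. These probe sets do not tell the spliced from the unspliced form. Markers of plasma cells, which secrete antibody and depend on Xbp1, had means of 4.57 to 5.21 in lungs against at most 3.28 in the other tissues, with 2 of the 4 measured markers passing the filter in lungs, and their part in the Xbp1 level was not tested.

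Atf4, the transcription factor that is translated when eIF2alpha is phosphorylated, also separated the tissues, in another order. Log2 levels (1448135_PM_at) were 10.68 and 11.003 in WT and 10.92 and 11.09 in KO fibroblasts. They were 10.37, 9.98 and 10.22 in WT and 10.21, 10.04 and 10.11 in KO lungs, and 9.35, 9.05 and 9.34 in WT and 9.02, 9.23 and 9.06 in KO hearts. Fibroblasts were highest and heart was lowest, without overlap. Differences were 0.98 for lungs minus heart (SE 0.10, 1.97-fold, adjusted p = 5.90e-07), -0.77 for lungs minus fibroblasts (SE 0.11, adjusted p = 2.15e-05) and -1.75 for heart minus fibroblasts (SE 0.11, 3.36-fold, adjusted p = 3.45e-09). The other Atf4 probe set, 1439258_PM_at, stayed below the filter in all comparisons. Because ATF4 is controlled mainly at translation, its transcript level is no measure of its activity.

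Ddit3, the gene of the transcription factor CHOP, was higher in fibroblasts than in the organs. Its log2 levels (1417516_PM_at) were 8.64 and 8.32 in WT and 8.82 and 8.64 in KO fibroblasts. Lungs had 6.94, 7.18 and 7.41 in WT and 7.01, 7.21 and 6.72 in KO, and hearts 7.23, 7.26 and 7.47 in WT and 6.73, 7.18 and 7.26 in KO. Lungs and heart overlapped (-0.11, adjusted p = 0.431), though after quantile normalization heart was higher (-0.29, adjusted p = 0.0228). The difference from fibroblasts was -1.53 in lungs (SE 0.14, 2.89-fold, adjusted p = 3.02e-07) and -1.42 in heart (SE 0.14, 2.67-fold, adjusted p = 5.08e-07).

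Trib3, a pseudokinase gene that ATF4 and CHOP induce, passed the filter through fibroblasts alone. The filter kept probe sets whose mean in a compared tissue exceeded 3.79. Log2 levels (1426065_PM_a_at) lay between 3.33 and 4.08 in lungs and between 3.23 and 3.97 in heart. In fibroblasts they were 5.95 and 6.28 in WT and 7.01 and 7.27 in KO. The means of 3.74 in lungs and 3.71 in heart lay below the filter, so the organs have only an upper bound and were not compared with each other. Fibroblasts, with a mean of 6.63, were at least 7.17-fold higher than either organ, taken against the filter value. The gene entered both comparisons with fibroblasts because it was high there, so that it had to differ, and it is counted below among the called members.

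Counted over all member probe sets, most differed between tissues, as did most probe sets of the array. For lungs minus heart, 12 of 17 kept member probe sets were called, 11 higher in lungs and 1 lower, where 75.6% of all kept probe sets were called (46.5% as higher and 29.1% as lower). Between the WT groups alone, in the fit of all arrays, 6 of 17 were called, where 60.2% of all were. For lungs minus fibroblasts 12 of 18 were called, 4 higher and 8 lower in lungs, against 74.1% of all (34.6% as higher and 39.5% as lower). For heart minus fibroblasts 17 of 18 were called, 2 higher and 15 lower in heart, against 75.9% of all (30.5% as higher and 45.4% as lower). The lower ones in heart cover 8 of the 9 genes, and the 2 higher ones are both of Herpud1. These counts describe the members beside the array and carry no test.

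Between KO and WT, no member probe set was called in any tissue by limma. In lungs 17 member probe sets were kept, 0 were called where 0.0301% of all kept probe sets were, and 3 had an unadjusted p under 0.05 where 6.96% of all did. Of the 17 differences 16 were below 0, and the median over main probe sets was -0.19, while 40% of all probe sets lay above 0 with a median of -0.06. In heart 16 were kept, 0 were called (0.127% of all) and 0 had an unadjusted p under 0.05 (17% of all). There 15 of 16 differences were below 0, with a median of -0.12 over main probe sets, while 27.8% of all lay above 0 and the median of all was -0.16. In fibroblasts 18 were kept, 0 were called (0.0549% of all), 1 had an unadjusted p under 0.05 (3.33% of all), and 11 lay above 0 (55.3% of all), with a median of 0.09 over main probe sets against 0.02 for all. With the lungs and heart values of each mouse averaged, 0 of 17 were called (0.00857% of all), 2 had an unadjusted p under 0.05 (13.9% of all), and all 17 lay below 0, where 30.7% of all lay above it. A fit with a trended, robust prior also called 0 in each tissue.

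**Figure D4:**
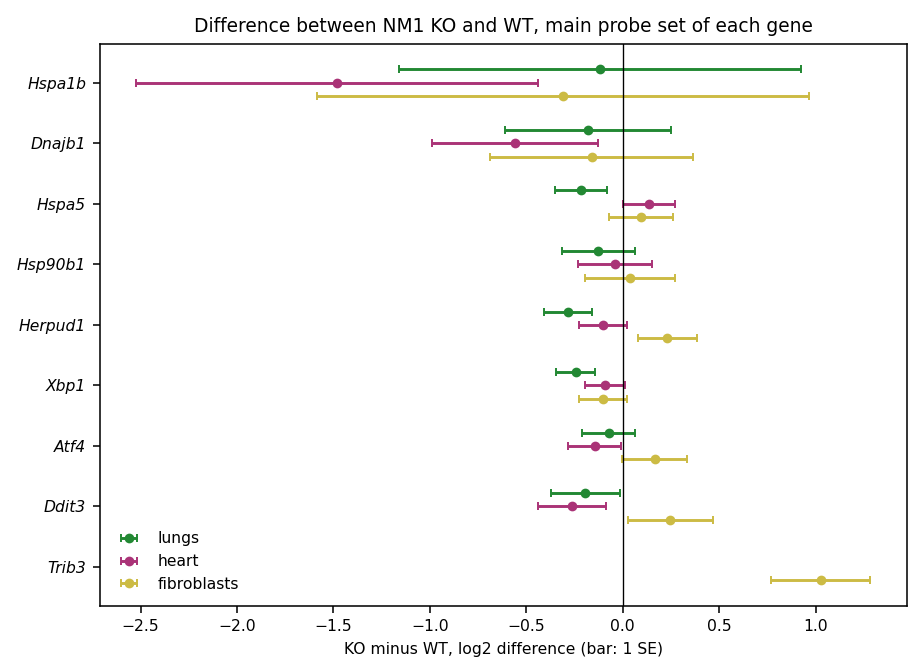
KO minus WT log2 difference (x axis) of the main probe set of each gene (y axis) in lungs (green), heart (purple) and fibroblasts (yellow), with bars of 1 SE from limma. Trib3 is drawn for fibroblasts alone because it stayed below the filter in the organs. Bars of Hspa1b are the widest, and Trib3 in fibroblasts, at 1.03, is the farthest point from 0 relative to its SE.

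In lungs, Xbp1 and Herpud1 were the genes whose main probe sets did not overlap between genotypes. Xbp1 ranged from 11.06 to 11.28 in WT and from 10.88 to 10.95 in KO, a difference of -0.24 (SE 0.10, adjusted p = 0.711 by limma). Herpud1 ranged from 10.34 to 10.57 in WT and from 10.08 to 10.22 in KO, a difference of -0.28 (SE 0.12, adjusted p = 0.711). These 2 were all that did not overlap among the 17 kept member probe sets, both lower in KO, and 6.46% of all kept probe sets were lower in KO without overlap. The other main probe sets had lungs differences from -0.22 for Hspa5 to -0.07 for Atf4. Among the KO lungs, 1603 and 1586 carried adipocyte transcripts as given above, and 1586 was the lowest KO lungs sample for every measured gene but Trib3 and Atf4.

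In heart the largest differences were those of the cytosolic chaperones, within their spread. Hspa1b differed by -1.48 (SE 1.04, adjusted p = 0.479), and leaving out 1 heart at a time moved this from -2.26 to -0.34, the last without WT 1593. Dnajb1 differed by -0.56 (SE 0.43, adjusted p = 0.521), between -0.87 and -0.18 with 1 heart left out. All other main probe sets lay between -0.26 for Ddit3 and 0.14 for Hspa5. The groups overlapped for every main probe set. Of the 16 kept probe sets 2 did not overlap, 1420886_PM_a_at and 1420011_PM_s_at of Xbp1, both lower in KO at -0.27 and -0.17, and 13.7% of all kept probe sets were lower in KO hearts without overlap.

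In fibroblasts Trib3 was the member with the smallest adjusted p and the only one with an unadjusted p under 0.05. It was 1.03 log2 higher in KO than in WT (SE 0.26, 2.04-fold), with an adjusted p of 0.397 by limma, so it was not called. Both KO samples were above both WT samples. Herpud1 lay at 0.23 (SE 0.15, adjusted p = 0.9999), also without overlap, for both of its probe sets, and leaving out 1 array moved it from 0.07, without WT 1623, to 0.39, without WT 1571. In all, 4 of 18 kept probe sets were higher in KO without overlap, the last being 1427464_PM_s_at of Hspa5, and 19.5% of all kept probe sets were. No member was lower without overlap, as 13% of all were, and with 2 samples per genotype the groups lay apart for 32.5% of all in 1 direction or the other. Differences of the other main probe sets were -0.31 for Hspa1b, -0.16 for Dnajb1, -0.10 for Xbp1, 0.04 for Hsp90b1, 0.09 for Hspa5, 0.17 for Atf4 and 0.25 for Ddit3, none with an adjusted p below 0.9999.

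Tested as a difference between tissues, the genotype effect was called for no member. For Trib3 the effect in lungs minus that in fibroblasts was -1.16 (SE 0.33, adjusted p = 0.788 by limma) and in heart minus fibroblasts -1.24 (SE 0.33, adjusted p = 0.436). These comparisons share the fibroblast samples and set them against organs where the gene lay below the filter. For Herpud1 lungs minus fibroblasts was -0.52 (SE 0.19, adjusted p = 0.987), the KO lungs lying below and the KO fibroblasts above their controls. For lungs against heart 0 members had an unadjusted p under 0.05 (7.22% of all kept probe sets), for lungs against fibroblasts 3 (4.37%) and for heart against fibroblasts 1 (7.77%). Of all kept probe sets, 0%, 0.0197% and 0.0203% were called in these comparisons.

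The other genes of these pathways were read from 4 lists. They hold 22 heat shock genes (18 measured), 24 ER chaperones and degradation factors (24 measured), 9 sensors and kinases (9 measured) and 32 targets of ATF4 (25 measured), each gene by its main probe set. The heat shock list holds mostly cytosolic chaperones, with 2 heat shock factors, the mitochondrial chaperone genes Hspd1 and Hspe1, and Serpinh1, whose collagen chaperone works in the ER. ER chaperones were lower in both organs than in fibroblasts, with 17 of 23 kept called lower and 1 higher in lungs (median -0.96 against -0.08 for all probe sets, of which 39.5% were lower and 34.6% higher) and 21 lower and 1 higher in heart (median -1.41 against -0.24, with 45.4% of all lower and 30.5% higher). Examples are Sdf2l1, a partner of BiP, at -1.85 and the disulfide isomerase Pdia4 at -1.71 in lungs, and the translocon subunit Sec61b at -2.69 and the degradation factor Edem1 at -2.63 in heart. Between the organs, 17 of 23 were called higher in lungs and 1 lower (median 0.80 against 0.26, with 46.5% of all higher and 29.1% lower), among them Sec61b at 2.21 and Sec61a1 at 1.79. Heat shock genes were called in both directions. For lungs minus heart 3 of 17 were higher (46.5% of all) and 8 lower (29.1% of all), with the small heat shock protein Hspb8 at -2.94 and its partner Bag3, both abundant in muscle, at -2.11. In heart minus fibroblasts 7 were higher (30.5% of all) and 6 lower (45.4% of all), led by the lens and muscle chaperone Cryab at 2.76 and the ER-resident Serpinh1 at -2.30. Lungs minus fibroblasts had 2 higher (34.6% of all) and 8 lower (39.5% of all), with Serpinh1 at -1.98 and the cytosolic HSP110 gene Hsph1 at -1.54. Without Serpinh1, a change made after seeing the data, the lower counts against fibroblasts were 5 of 16 in heart and 7 of 16 in lungs, and the counts between the organs were again 3 higher and 8 lower. Hspa1b and Dnajb1, higher in lungs than in heart, thus had the direction of the 3 higher genes, not of the 8 lower ones.

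The sensors and the ATF4 targets were called mostly lower in the organs than in fibroblasts. Of 9 sensors and kinases, 5 were called higher (46.5% of all) and 1 lower (29.1% of all) in lungs than in heart, led by Eif2ak3, the gene of PERK, at 2.02 and Atf6b at 1.51. Relative to fibroblasts 2 were higher (34.6% of all) and 5 lower (39.5% of all) in lungs, with the IRE1 gene Ern1 at 1.46 and the RNA-activated kinase Eif2ak2 at -1.55, and 1 higher (30.5% of all) and 6 lower (45.4% of all) in heart, with Eif2ak3 at -2.31 and Atf6b at -2.06. ATF4 targets, a mixed list that includes genes of amino acid supply and transport, were lower than in fibroblasts for 19 of 24 in lungs (39.5% of all) and 20 of 24 in heart (45.4% of all), and higher for 1 and 2. Of these 24, 22 passed the filter by their lungs mean and 21 by their heart mean. The others entered through fibroblasts, so they had to be lower in the organ. The serine synthesis gene Psat1 had -4.78 in lungs. In heart its mean of 3.65 lay below the filter, so that fibroblasts, at 9.49, were at least 5.71 log2 higher. The other largest differences were the amino acid carrier gene Slc7a5 at -3.57 in lungs and the asparagine synthetase gene Asns at -5.02 in heart. Between the organs 14 of 22 were higher in lungs (46.5% of all) and 7 lower (29.1% of all), with the stress gene Nupr1 at 4.12 and the lipoprotein receptor gene Vldlr at -3.37. All differences named for these lists were called by limma at an adjusted p of at most 0.000583.

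Between genotypes, 0 genes of the 4 lists were called in any tissue. Among these 4 lists, the ATF4 targets had the medians farthest from 0 in heart and in fibroblasts. The immediate early genes set beside Hspa1b above lay farther from 0 in heart, with a median of -0.52 and 0 called. All 12 kept lay below 0 (72.2% of all), 6 with an unadjusted p under 0.05 (17% of all) and 4 lower in KO without overlap (13.7% of all). In fibroblasts 21 of the 24 kept ATF4 targets lay above 0, where 55.3% of all probe sets did, with a median of 0.24 against 0.02. Of the 24, 14 were higher in KO without overlap, where 19.5% of all were, 1 was lower without overlap (13% of all), and 3 had an unadjusted p under 0.05 (3.33% of all). Their mean level was 8.002 to 8.062 in KO and 7.76 to 7.83 in WT fibroblasts. The fibroblast markers also lay above 0, for 6 of 6 genes with a median of 0.19, 2 of them without overlap, and with mean levels of 10.5 and 10.8 in KO and 10.3 and 10.5 in WT. Their part in the ATF4 target values was not tested. The smallest p was that of Fgf21, a secreted hormone gene, at 4.73 and 4.47 in KO and 3.23 and 4.02 in WT, the lower of which is below the filter (0.98, SE 0.27, adjusted p = 0.519, and from 0.58 without WT 1571 to 1.37 without WT 1623). In lungs 18 of 22 targets lay below 0 (60% of all; median -0.19 against -0.06), 4 with an unadjusted p under 0.05 (6.96% of all). In heart 16 of 21 lay below 0, close to the 72.2% of all, with a median of -0.43 against -0.16 and 8 with an unadjusted p under 0.05 (17% of all). Named by the smallest p, Ddit4, an inhibitor of mTOR signalling, was at 7.73, 7.96 and 7.38 in KO and 8.16, 8.45 and 8.45 in WT lungs (-0.67, SE 0.20, adjusted p = 0.711). In heart it was the transcription factor gene Cebpb, at 9.10, 9.04 and 9.13 in KO and 9.48, 9.64 and 9.77 in WT (-0.54, adjusted p = 0.0860, and 0.0483 with a trended, robust prior). With 1 heart left out its adjusted p by limma ran from 0.0478, without KO 1603, to 0.317, without WT 1593. It passed only without KO 1603, in a fit that called 1054 of all probe sets. The genotype effect in lungs minus that in fibroblasts was below 0 for all 24 kept targets (40.1% of all probe sets lay above 0) and so was heart minus fibroblasts (29.8% above 0), with 0 called in either and with the fibroblast samples shared. Only 22 of the 24 passed the filter by their lungs mean and 21 by their heart mean. The others entered through fibroblasts, so their sign mostly restates the fibroblast effect, which was above 0 for 21 of 24. Markers of other cells lay on the same side of 0 in heart, with a median of -0.68 for 5 fibroblast markers, all below 0 and 3 with an unadjusted p under 0.05, -1.28 for 6 mesothelium markers and -3.28 for 5 atrial markers. Without KO 1602, the heart with the low upper quartile, the median of the ATF4 targets was -0.25 against -0.02 for all, and with the 2 KO hearts low in atrial transcripts left out it was -0.17 against -0.02, with 15 of 22 below 0 (53.5% of all). That last fit leaves 1 KO heart, which is assumed to vary like the other groups. Without the 3 lungs samples rich in adipocyte transcripts the lungs median was -0.09 against -0.02, with 18 of 22 below 0 (53.9% of all). That fit likewise rests on KO 1602 as the only KO lungs sample.

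**Figure D5:**
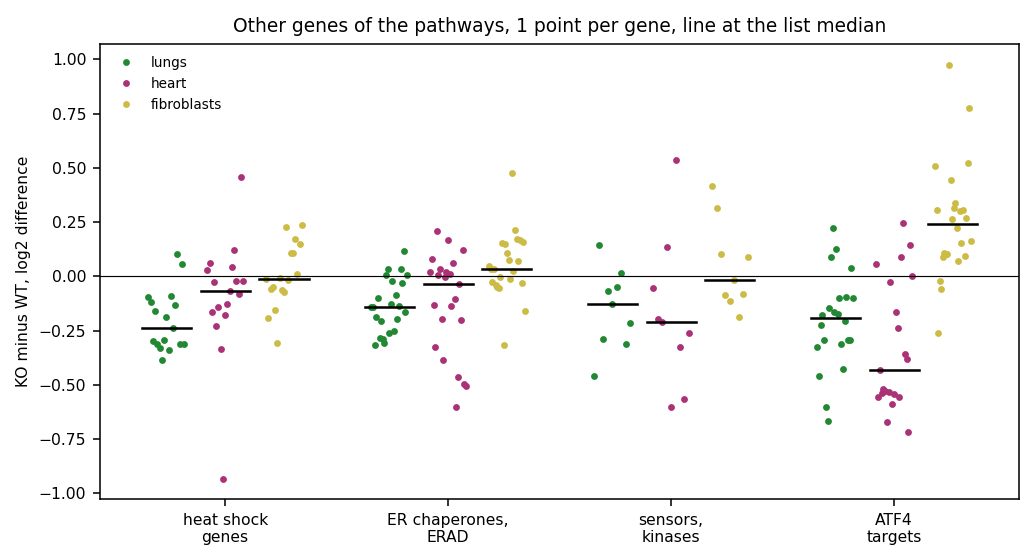
KO minus WT log2 difference (y axis) of the genes of the 4 other pathway lists (x axis), 1 point per kept gene, in lungs (green), heart (purple) and fibroblasts (yellow), with a line at each list median. The ATF4 targets have medians of -0.19 in lungs, -0.43 in heart and 0.24 in fibroblasts, and no point was called.

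The heat shock genes, ER genes and sensors had medians nearer to 0 in heart and in fibroblasts. In lungs, where 60% of all probe sets lay below 0 and 6.96% had an unadjusted p under 0.05, 15 of 17 heat shock genes lay below 0 (median -0.24, 1 with an unadjusted p under 0.05), 18 of 23 ER genes (median -0.14, 0 under 0.05) and 7 of 9 sensors (median -0.13, 1 under 0.05). Without the adipocyte-rich lungs these were 12 of 17 (median -0.18), 13 of 24 (median -0.03) and 7 of 9 (median -0.13), where 53.9% of all lay below 0. That fit rests on KO 1602 as the only KO lungs sample. In heart the counts below 0 were 12 of 17 (median -0.07, 2 under 0.05), 13 of 23 (median -0.04, 4 under 0.05) and 7 of 9 (median -0.21, 3 under 0.05), where 72.2% of all lay below 0 with a median of -0.16 and 17% were under 0.05. In fibroblasts those above 0 were 7 of 17 (median -0.01, 0 under 0.05), 14 of 23 (median 0.03, 0 under 0.05) and 4 of 9 (median -0.02, 1 under 0.05), where 55.3% of all lay above 0 and 3.33% were under 0.05. Genes with the smallest p in a list were, in lungs, the HSP40 gene Dnajb4 at -0.33, the BiP partner Dnajb11 at -0.29 and the sensor Atf6 at -0.46 (adjusted p = 0.711 for each). Heart had Hspa2, a testis-enriched HSP70, at -0.93 (adjusted p = 0.144), the translocon-associated gene Ssr1 at -0.50 (adjusted p = 0.104) and Eif2ak3 at -0.60 (adjusted p = 0.166). With 1 heart left out Eif2ak3 moved from -0.76, without KO 1603, to -0.34, without KO 1602, and Ssr1 from -0.58, without KO 1586, to -0.37, without KO 1602, and without KO 1603 both passed (adjusted p = 0.0461 and 0.0465 by limma), in a fit that called 1054 of all probe sets. Hspa2 was at 4.43, 5.35 and 5.31 in KO 1602, 1603 and 1586 and at 5.72, 6.20 and 5.96 in WT hearts, with KO 1602 the lowest. In fibroblasts these were Dnajb4 at -0.31, Pdia4 at 0.47 and Atf6 at 0.42 (adjusted p = 0.9999 for each).

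Genes with patterns most like those of 3 members were found by correlating tissue-centred log2 levels over the 16 arrays among 8972 candidate genes. Lungs and heart arrays come from the same 6 animals, so the arrays are not independent, and the r values carry no test. Hspa1b ran most closely with Dnaja1, an HSP40 gene, at an r of 0.885, then Hsph1 (0.822), the cytosolic HSP90 gene Hsp90aa1 (0.820), the matrix gene Ltbp2 (0.815) and the transcription factor gene Klf4 (0.796). For Hspa5 the 5 closest were Opa3 (0.889), Flii (0.871), Ppp2ca (0.863), Hps6 (0.857) and Ube2g1 (0.841), none of them a chaperone. Trib3 was closest to Car2 (0.881), Ecscr (0.858), Tmtc2 (0.823), Pyroxd2 (0.800) and Thsd4 (0.790). Its means of 3.74 in lungs and 3.71 in heart lay below the filter, so most of the 16 arrays hold little signal for it. Its fibroblast levels differed mostly between KO (7.01 and 7.27) and WT (5.95 and 6.28), so these r values rest largely on the fibroblast arrays. Among the members themselves, Hspa1b and Dnajb1 had the highest r, 0.938, followed by Hspa5 and Hsp90b1 with 0.752 and Hsp90b1 and Dnajb1 with 0.637. The lowest was that of Hspa1b and Herpud1, at -0.23.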

How the data were processed

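RNA of 16 samples was measured on Affymetrix mouse arrays, and the authors deposited a log2 value for each probe set of each array. Their processing notes name Partek 6.4, per the labels. The sources used here do not give how the background was corrected, probes summarised and arrays normalized, and that the scale is log2 was judged by the range of the values. Of 45141 entries, 104 controls were set aside. The array annotation names 1 gene for 28898 probe sets, several for 551 and none for 15588.

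One limma model (3.58.1, R 4.3.3) with 6 group means was fitted to the log2 values of all 16 arrays as deposited (10 residual and 3.53 prior degrees of freedom). Lungs and heart of a mouse counted as separate samples. A probe set entered a comparison if its mean in a compared tissue exceeded 3.79, the median of all values. Two-sided p-values were adjusted by Benjamini-Hochberg over the probe sets that entered, and an adjusted p under 0.05 was called. They rest on the spread between animals within groups, and the number of arrays limits the precision. Tissues were compared over the mean of both genotypes. The fits and the permutation code were checked on simulated data.

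The members and gene lists were chosen with earlier results of these data known. Named were all members by their main probe set (highest mean over the arrays), other probe sets where they disagree, and per other list the gene with the smallest p between genotypes and the 2 largest tissue differences. The relations planned with the mean of Hspa1a and Hspa1b used Hspa1b, since Hspa1a had no probe set.

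The mouse numbers in the titles pair lungs with heart of 1 animal. Deviations from group means of the 2 organs correlated at 0.0597 to 0.128 over mice, and were highest with the own heart for 4 of 6. Alternatives were quantile normalization, no filter, the mouse as a random block, a trended robust prior, the compared tissues alone and leaving out each array. Another compared the WT groups only, within the fit of all arrays. Chosen after seeing the data were fits without lungs with adipocyte transcripts or KO hearts low in atrial transcripts, counts of the heat shock list without Serpinh1, and the relation of Hspa1b between organs.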

Additional observations from a re-analysis of the deposited data

Results flagged for a closer look

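Among the members and the genes named above by the smallest p between genotypes in a list, some had KO and WT samples apart without overlap in opposite directions in an organ and in fibroblasts. These were examined for a difference of the genotype effect, and none passed after adjustment by limma. The other genes of the lists were not examined in this way. The choice used the same values as the test, so the sign of each difference was set by it. Atf6, an ER stress sensor, was lower in KO lungs and higher in KO fibroblasts, with an effect in lungs minus that in fibroblasts of -0.88 (SE 0.24, adjusted p = 0.763). Its levels were 6.79, 6.56 and 6.26 in KO and 6.84, 7.08 and 7.07 in WT lungs, and 6.66 and 6.405 in KO and 6.14 and 6.09 in WT fibroblasts. Ssr1, of the translocon, had -0.65 for heart minus fibroblasts (SE 0.19, adjusted p = 0.479). Pdia4, a disulfide isomerase, had -0.72 for lungs minus fibroblasts (SE 0.34, adjusted p = 0.987), and Herpud1 had -0.52 (SE 0.19, adjusted p = 0.987). With 2 fibroblast samples per genotype, groups lay apart for 32.5% of all kept probe sets there.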

How the results depend on the processing

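The count of called member probe sets stayed at 0 in each genotype comparison and each difference between tissues of the genotype effect under quantile normalization, no filter, a trended robust prior, the compared tissues alone and each array left out (0 to 0). With the mouse as a replicate block the counts were again 0, and 12, 12 and 17 for lungs minus heart, lungs minus fibroblasts and heart minus fibroblasts. That fit set 1 low consensus correlation (0.0542) for all probe sets. It could hardly change a count, and the pairing of single genes such as Hspa1b was not modelled. Leaving out 1 array gave 11 to 13, 11 to 13 and 16 to 17. Comparing the WT groups alone, in the fit of all arrays, called 6 instead of 12 of 17 for lungs minus heart. The share of all probe sets called was then 60.2% instead of 75.6%.

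Relations over 6 mice moved more. As deviations from genotype means, with exchange within genotypes, Hspa1b with Dnajb1 in heart had r = 0.985 (exact permutation, adjusted p = 0.167) against 0.987 as deposited. Its p was the smallest that this exchange allows. Such a p passes the adjustment only if several relations reach it, so this setting cannot decide whether the relation holds. In heart, Hspa5 with Hsp90b1 turned to 0.390 and Hspa1b with Hspa5 to 0.276. Without the 2 farthest hearts these were 0.182 and 0.785, Hspa1b with Dnajb1 had 0.852, and Hspa1b with immediate early genes had -0.0066. No test was made over 4 samples. In the relations of Hspa1b, WT 1624 alone stood apart in Hspa1b level among the 4 hearts left.

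Counts over all probe sets were less stable. KO minus WT called 7 in lungs (4 without a filter, 1 with lungs alone and 0 to 62 with 1 array left out). In heart it called 28 (10 without a filter, 2 with heart alone and 3 to 1054 with 1 array left out), and in fibroblasts 12 (0 with fibroblasts alone). Fits that leave 1 sample in a group are not counted here. The cause was not tested.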
